A study of Mus musculus with 2 samples.

Results

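Tnfaip3, Tnip1, Tnip3, Nfkbia, Nfkbiz, Nfkbid, Irak3, Zc3h12a, Cyld and Tollip are 10 genes that restrain or tune NF-κB signalling, here called brakes for short. They were taken by symbol from the 32285 genes of the deposited count tables. All 10 were present in both tables under 1 identifier each. Their messenger RNA was followed across the leukocytes of neonatal mouse skin, in single-cell libraries of living CD45+ cells, which were sorted after collagenase digestion of the tissue. The mice were wild-type C57BL/6 animals. From postnatal day 4 to day 14 they received antibody every other day, either anti-Gr-1, which was given to deplete monocytes, or an isotype control antibody, and skin was taken on day 15. Each treatment gave 1 library, made from the pooled cells of 4 to 7 mice. A value in the anti-Gr-1 library is therefore set against a single isotype control library, with no replicate of the treatment and no test of it. All intervals below are 95% intervals that cover counting error only.

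NF-κB is a family of transcription factors that sits idle in the cytoplasm, bound to inhibitor proteins, until receptors for microbial products, interleukin-1 or tumour necrosis factor set off a kinase cascade. The cascade runs on ubiquitin chains, and it ends when the inhibitor is phosphorylated and destroyed. Several brakes are themselves made in response to NF-κB, so that their RNA often marks cells in which the pathway has been active. In skin this pathway governs the responses of resident phagocytes, mast cells and type 17 lymphocytes to the bacteria and injuries of early life.

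The 10 genes act at different levels. Nfkbia encodes IκBα, the cytoplasmic inhibitor, and Nfkbiz (IκBζ) and Nfkbid (IκBNS) encode nuclear relatives of it that tune transcription at selected promoters. Tnfaip3 encodes the ubiquitin-editing enzyme A20, and Tnip1 (ABIN-1) and Tnip3 (ABIN-3) encode A20-binding proteins. Cyld is a deubiquitinase that strips linear and lysine 63-linked chains. Irak3 (IRAK-M) and Tollip act near Toll-like and interleukin-1 receptors, and Zc3h12a (Regnase-1) is an endonuclease that destroys transcripts of inflammatory genes.

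Because several of these genes are known targets of NF-κB, their promoters were read from RefSeq on build GRCm38.p6, over the 250 bases before and 50 bases after each start site. The window was searched on both strands for the degenerate κB consensus, which is 10 bases long, opens with GGG and closes with CC. Overlapping matches were counted and no other motif was searched. The promoter table held 9 of the 10 genes, with 13 start sites, and all but Nfkbiz were among them. A match lay in 6 of these 9 genes, which were Nfkbia, Tnfaip3 (at 1 of its start sites), Tnip1, Tnip3, Nfkbid (at 1 of its start sites) and Cyld. Over the 13 start sites, 6 had a match (46.2%). None lay in the windows of Irak3, Zc3h12a or Tollip. Over all annotated genes 5.14% had a match (1388 of 27025), and over all start sites 4.51% (1480 of 32851). The windows of 3 genes with matches and of 1 without are shown, each in the direction of transcription from 5′ to 3′, with matches in capitals. They are Nfkbia (chr12:55492598-55492897, minus strand), Tnfaip3 (chr10:19015361-19015660, minus strand), Tnip3 (chr6:65590148-65590447, plus strand) and Tollip (chr7:141902412-141902711, minus strand).
Nfkbia: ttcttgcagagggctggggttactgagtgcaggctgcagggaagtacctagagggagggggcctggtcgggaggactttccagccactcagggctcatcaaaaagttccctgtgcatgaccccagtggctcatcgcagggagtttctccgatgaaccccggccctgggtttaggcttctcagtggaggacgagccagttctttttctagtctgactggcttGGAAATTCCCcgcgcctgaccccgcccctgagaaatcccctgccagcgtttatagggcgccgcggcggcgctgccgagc
Tnfaip3: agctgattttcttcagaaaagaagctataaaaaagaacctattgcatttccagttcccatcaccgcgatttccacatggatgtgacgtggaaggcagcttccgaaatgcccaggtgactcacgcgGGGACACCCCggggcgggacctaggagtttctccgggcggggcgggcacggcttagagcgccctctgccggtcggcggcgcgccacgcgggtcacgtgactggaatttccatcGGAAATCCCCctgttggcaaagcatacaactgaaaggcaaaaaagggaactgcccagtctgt
Tnip3: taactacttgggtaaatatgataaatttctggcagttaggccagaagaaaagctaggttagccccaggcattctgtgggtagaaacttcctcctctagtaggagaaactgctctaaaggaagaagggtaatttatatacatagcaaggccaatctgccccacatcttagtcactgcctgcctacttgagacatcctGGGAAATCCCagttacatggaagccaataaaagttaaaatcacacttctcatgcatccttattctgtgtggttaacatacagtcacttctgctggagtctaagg
Tollip: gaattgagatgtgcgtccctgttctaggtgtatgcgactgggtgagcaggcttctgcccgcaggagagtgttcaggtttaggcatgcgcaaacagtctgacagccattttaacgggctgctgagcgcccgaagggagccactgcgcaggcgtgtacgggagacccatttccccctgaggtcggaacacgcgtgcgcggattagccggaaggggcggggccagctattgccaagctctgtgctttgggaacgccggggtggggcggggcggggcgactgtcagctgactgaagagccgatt
The Nfkbia match lay 29 to 20 bases before the start site, on the other strand. In Tnfaip3, 1 match lay 125 to 116 bases before the start on the strand shown, and 1 lay 12 to 3 bases before it on the other strand. The Tnip3 match, 54 to 45 bases before the start, read as a match on both strands. These are matches of letters in a window and no binding was measured.

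The anti-Gr-1 library held 9110 cell barcodes and 85142470 unique molecular identifiers (UMIs, each counted as 1 captured RNA molecule), against 21311 barcodes and 125253392 UMIs in the isotype control library. After filters on genes, UMIs and mitochondrial share and removal of likely doublets, 7529 anti-Gr-1 cells with a median of 7872 UMIs and 16487 isotype control cells with a median of 5081 UMIs were kept. Neutrophils made up 0.133% of kept cells in anti-Gr-1 against 0.807% in isotype control, and classical monocytes 0.186% in anti-Gr-1 and 1.04% in the isotype control. Cells were placed in classes by marker genes, none of them a member, and a cell that passed no gate or more than 1 stayed out. That left out 1483 anti-Gr-1 cells (19.7%, median 6572 UMIs) and 6345 isotype control cells (38.5%, median 2157 UMIs). The libraries shared 61 barcodes, 45 of them among kept cells. Cells with male-linked transcripts numbered 4316 in anti-Gr-1 against 5377 in isotype control, and those with female-linked ones 1432 in anti-Gr-1 and 5724 in the isotype control, so the pools differed in sex as well as in treatment.

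Of 21 gated classes, 13 held at least 50 cells in each library, from 62 anti-Gr-1 and 117 isotype control Langerhans cells to 1351 anti-Gr-1 and 2203 isotype control dendritic epidermal T cells. In each of the 13, most markers of its list were found in at least 30% of cells, for example 11 of 12 in macrophages, 8 of 8 in type 1 dendritic cells and 9 of 10 in gamma-delta type 17 T cells of both libraries. The gates asked for several of these markers, so this follows in part from the gating. Fewer markers were highest in their own class among type 2 dendritic cells (3 of 8 in anti-Gr-1, 4 of 8 in isotype control) and Hlf Bmp2 Rora lymphoid cells (2 of 6 in anti-Gr-1, 3 of 6 in isotype control). Retnla Lpl Fn1 phagocytes had 3 of 6 in both libraries, against 10 of 12 in macrophages. A pair of classes is called by its leading genes and has no cell type name here, the Retnla Lpl Fn1 phagocytes and the Hlf Bmp2 Rora lymphoid cells. Class names stand for what the gates select. Levels are given as CPM, the UMIs of a gene in all cells of a class per 1000000 UMIs of that class. Markers of other cells were also counted in these classes, and their source was not tested. The summed level of 12 macrophage markers was 22.1 CPM in anti-Gr-1 mast cells against 182 CPM in isotype control mast cells, 29 CPM in anti-Gr-1 against 72.3 CPM in isotype control dendritic epidermal T cells, and 21.8 CPM in anti-Gr-1 against 67.8 CPM in isotype control gamma-delta type 17 T cells. Some genes ran the other way in regulatory T cells, where Retnla was 412 CPM in anti-Gr-1 against 138 CPM in isotype control and Lyz2 563 CPM in anti-Gr-1 against 442 CPM in isotype control.

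Most members had class patterns that the libraries shared. Gamma-delta type 17 T cells and mast cells stood at or near the top for Nfkbia, Tnfaip3, Nfkbid and, in the first of these classes, Zc3h12a and Irak3. Tnip3 was a gene of type 2 dendritic cells and Retnla Lpl Fn1 phagocytes. Cyld was highest in conventional CD4 and regulatory T cells, Hlf Bmp2 Rora lymphoid cells and group 2 innate lymphoid cells. Type 1 dendritic cells stood last or next to last in both libraries for Tnfaip3, Nfkbia, Nfkbiz, Nfkbid, Zc3h12a and Tollip. For Tnip1 they were last in anti-Gr-1, with 17.7 CPM, but not in isotype control, with 27.4 CPM against 23.4 CPM in type 2 dendritic cells.

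**Figure D1:**
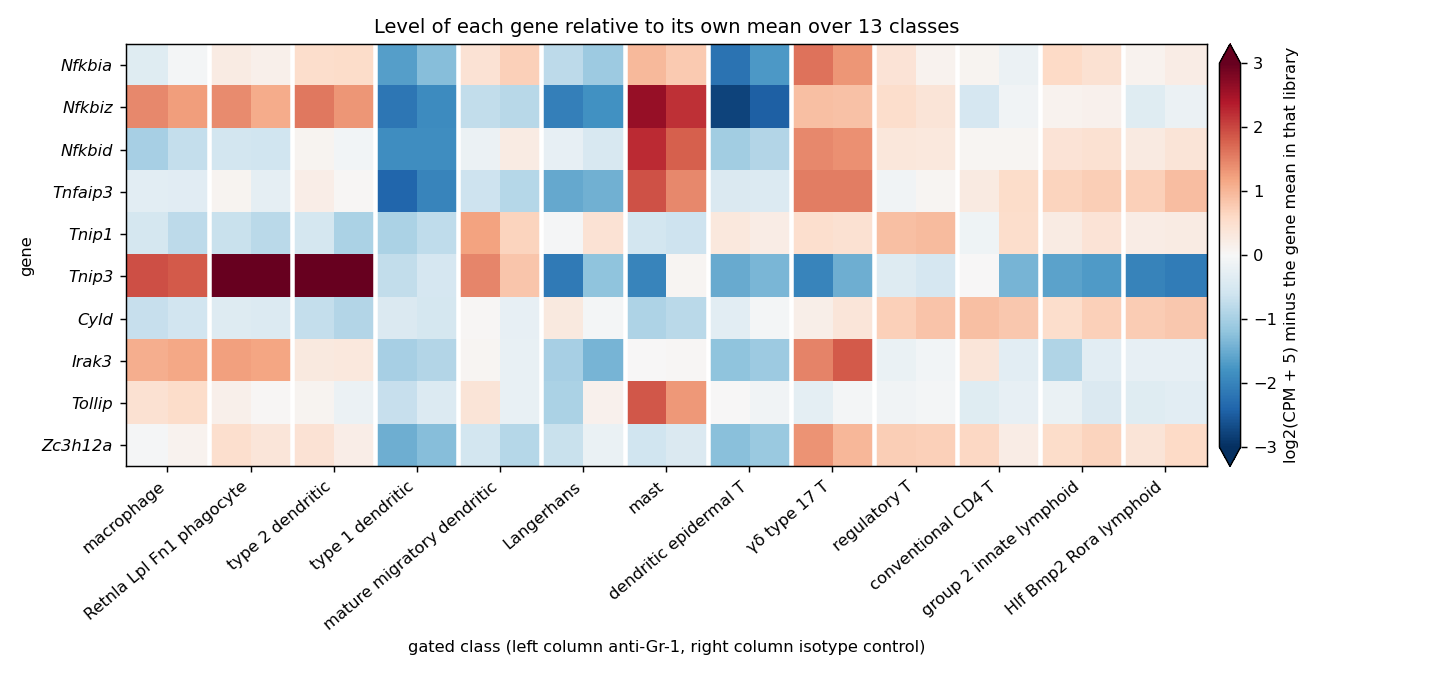
Level of each gene (rows) in each of 13 gated classes (column pairs, anti-Gr-1 left and isotype control right), as log2(CPM + 5) minus the mean of that gene over the classes in that library; colours stop at 3 and Tnip3 goes beyond it in type 2 dendritic cells and Retnla Lpl Fn1 phagocytes. Left and right columns of a pair look alike for nearly all genes. Each library was centred on its own mean, so a difference between libraries that all classes share does not show here.

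Nfkbia (ENSMUSG00000021025, chr12:55489410-55492647, minus strand), the gene of the cytoplasmic inhibitor IκBα, was highest in gamma-delta type 17 T cells, the interleukin-17-producing T cells of the dermis. Its level there was 3092 CPM (3050 to 3135) in anti-Gr-1 and 2637 CPM (2598 to 2676) in isotype control. Mast cells followed with 1976 CPM in anti-Gr-1 and 1793 CPM in isotype control. A broad middle group spanned type 2 dendritic cells with 1459 CPM in anti-Gr-1 and 1543 CPM in isotype control, mature migratory dendritic cells with 1362 CPM in anti-Gr-1 and 1727 CPM in isotype control and group 2 innate lymphoid cells with 1523 CPM in anti-Gr-1 and 1442 CPM in isotype control, and these 3 overlapped. At the low end stood type 1 dendritic cells, with 318 CPM in anti-Gr-1 and 429.8 CPM in isotype control, and dendritic epidermal T cells, with 213 CPM (204 to 223) in anti-Gr-1 and 314 CPM (304 to 324) in isotype control. Both ends were therefore held by gamma-delta T cells, those of the dermis and those of the epidermis. Among classes with fewer cells, basophils had 9466 CPM (9011 to 9939) in anti-Gr-1 and 8057 CPM (7562 to 8577) in isotype control, above every larger class. Neutrophils had 806 CPM (645 to 994) in the 10 anti-Gr-1 cells and 2708 CPM (2536 to 2890) in the 133 isotype control cells.

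Nfkbiz (ENSMUSG00000035356, chr16:55811375-55838899, minus strand) encodes IκBζ, which many cells make quickly after interleukin-1, interleukin-17 or Toll-like receptor signals. Mast cells had the most of it, 1699 CPM (1647 to 1753) in anti-Gr-1 and 1632 CPM (1581 to 1683) in isotype control. Next stood 3 mononuclear phagocyte classes whose ranges overlapped: type 2 dendritic cells with 829 CPM in anti-Gr-1 and 899 CPM in isotype control, macrophages with 750.2 CPM in anti-Gr-1 and 859 CPM in isotype control, and Retnla Lpl Fn1 phagocytes with 741 CPM in anti-Gr-1 and 771 CPM in isotype control. Gamma-delta type 17 T cells followed with 519 CPM in anti-Gr-1 and 653 CPM in isotype control. The 3 lowest classes again overlapped, namely Langerhans cells with 61.8 CPM in anti-Gr-1 and 97.4 CPM in isotype control, type 1 dendritic cells with 56.5 CPM in anti-Gr-1 and 92.6 CPM in isotype control, and dendritic epidermal T cells with 35.9 CPM in anti-Gr-1 and 61.4 CPM in isotype control. Basophils had 3600 CPM in anti-Gr-1 and 3677 CPM in isotype control, and neutrophils 778 CPM (621 to 963) in anti-Gr-1 and 1781 CPM (1642 to 1929) in isotype control.

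Nfkbid (ENSMUSG00000036931, chr7:30421732-30428746, plus strand) encodes IκBNS, a nuclear protein known for its part in lymphocyte development. It too was highest in mast cells, at 803 CPM in anti-Gr-1 and 706 CPM in isotype control, and next in gamma-delta type 17 T cells, at 462 CPM in anti-Gr-1 and 522 CPM in isotype control. A further 4 lymphoid and 2 dendritic classes overlapped in a continuous series, from group 2 innate lymphoid cells at 222 CPM in anti-Gr-1 and 274 CPM in isotype control down to type 2 dendritic cells at 175 CPM in anti-Gr-1 and 186 CPM in isotype control. Dendritic epidermal T cells had 78.4 CPM in anti-Gr-1 and 105 CPM in isotype control. Type 1 dendritic cells were lowest, with 42.2 CPM (38 to 46.8) in anti-Gr-1 and 51.2 CPM (45.4 to 57.5) in isotype control.

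Tnfaip3 (ENSMUSG00000019850, chr10:19000910-19015657, minus strand), which encodes A20, had its highest levels in the same classes, but here they overlapped. Mast cells had 2008 CPM (1951 to 2066) in anti-Gr-1 and 1726 CPM (1674 to 1778) in isotype control, and gamma-delta type 17 T cells had 1565 CPM (1535 to 1595) in anti-Gr-1 and 1825 CPM (1792 to 1858) in isotype control. Which of them came first thus depended on the library. Innate-like lymphoid cells came next, with 874 CPM in anti-Gr-1 and 1194 CPM in isotype control in the Hlf Bmp2 Rora class and 848 CPM in anti-Gr-1 and 1055 CPM in isotype control in group 2 innate lymphoid cells. Type 2 dendritic cells, regulatory T cells and Retnla Lpl Fn1 phagocytes lay together in the middle, between 492 and 659 CPM over both libraries. Type 1 dendritic cells were again lowest, at 99 CPM (92.5 to 106) in anti-Gr-1 and 156 CPM (145 to 167) in isotype control, so the span from highest to lowest class was 20.3-fold in anti-Gr-1 against 11.7-fold in isotype control. Basophils had 2332 CPM in anti-Gr-1 and 2850 CPM in isotype control, and eosinophils 1978 CPM in anti-Gr-1 and 1736 CPM in isotype control.

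Tnip3 (ENSMUSG00000044162, chr6:65525313-65634040, plus strand), the gene of the A20-binding protein ABIN-3, was concentrated in a few classes. Type 2 dendritic cells had 669 CPM (655 to 683) in anti-Gr-1 and 684 CPM (672 to 696) in isotype control, and Retnla Lpl Fn1 phagocytes 575 CPM (554 to 596) in anti-Gr-1 and 597 CPM (581 to 615) in isotype control. A step down led to macrophages, with 102 CPM in anti-Gr-1 and 165 CPM in isotype control, and mature migratory dendritic cells, with 72.3 CPM in anti-Gr-1 and 80.4 CPM in isotype control. The other 9 large classes lay between 1.47 and 44.9 CPM and overlapped one after another. Some other dendritic cell genes also differed between the libraries there. Mast cells had 2.13 CPM of Tnip3 in anti-Gr-1 against 44.9 CPM in isotype control, and in the same cells the dendritic cell gene Cd209a stood at 5.96 CPM in anti-Gr-1 against 35.5 CPM in isotype control and Il1b at 16.6 CPM in anti-Gr-1 against 307 CPM in isotype control. The whole list of 8 type 2 dendritic markers was level there, at 773 CPM in anti-Gr-1 against 763 CPM in isotype control, with none at 0. Tnip3 in gamma-delta type 17 T cells was 2.15 CPM in anti-Gr-1 against 12.3 CPM in isotype control, beside Cd209a at 4.6 CPM in anti-Gr-1 against 14.6 CPM in isotype control and the 8 markers at 129.7 CPM in anti-Gr-1 against 205 CPM in isotype control. How much of these low levels came from RNA of other cells was not tested.

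Tnip1 (ENSMUSG00000020400, chr11:54910785-54962917, minus strand) encodes ABIN-1, the more widely made A20-binding protein, and its classes lay closer together. Regulatory T cells had 76.9 CPM (65 to 90.4) in anti-Gr-1 and 101 CPM (91.1 to 113) in isotype control, and mature migratory dendritic cells 96.1 CPM (79.2 to 115) in anti-Gr-1 and 81.1 CPM (66.3 to 98.3) in isotype control. These 2 overlapped, and so did the next 6 classes, 5 lymphoid ones and Langerhans cells, between 35.3 and 73.7 CPM. The remaining 5 classes, mast cells, macrophages, type 2 and type 1 dendritic cells and Retnla Lpl Fn1 phagocytes, overlapped between 17.7 and 30.2 CPM. The ratio of type 2 over mature migratory dendritic cells was 0.268 (0.216 to 0.334) in anti-Gr-1 against 0.288 (0.232 to 0.361) in isotype control for Tnip1, and 9.26 (7.48 to 11.6) in anti-Gr-1 against 8.52 (7.02 to 10.4) in isotype control for Tnip3. The ratio of mature migratory dendritic cells over Langerhans cells was above 1 for both genes, at 2.51 (1.63 to 4.01) in anti-Gr-1 against 1.17 (0.854 to 1.62) in isotype control for Tnip1, where the second interval holds 1, and at 49.1 (8.58 to 1963) in anti-Gr-1 against 5.12 (2.96 to 9.47) in isotype control for Tnip3.

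Cyld (ENSMUSG00000036712, chr8:88697028-88751945, plus strand), the deubiquitinase, was highest in lymphoid classes, though not in all of them. Dendritic epidermal T cells had 59.5 CPM in anti-Gr-1 and 79.5 CPM in isotype control, below Langerhans cells with 92.7 CPM in anti-Gr-1 and 80.6 CPM in isotype control. Conventional CD4 T cells had 145 CPM (119.5 to 175) in anti-Gr-1 and 149 CPM (118 to 186) in isotype control. They overlapped with Hlf Bmp2 Rora lymphoid cells (131 CPM in anti-Gr-1 and 151 CPM in isotype control), regulatory T cells (127 CPM in anti-Gr-1 and 155 CPM in isotype control) and group 2 innate lymphoid cells (111 CPM in anti-Gr-1 and 140.1 CPM in isotype control). Mast cells, which led for Nfkbiz and Nfkbid, were low in Cyld, with 37 CPM (29.6 to 45.7) in anti-Gr-1 and 45.7 CPM (37.6 to 55) in isotype control. They overlapped with type 2 dendritic cells, at 44.1 CPM in anti-Gr-1 and 42.8 CPM in isotype control, which were the lowest of the large classes in isotype control. Among the small classes eosinophils stood apart, with 829 CPM (602 to 1113) in anti-Gr-1 and 1129 CPM (802 to 1543) in isotype control, from 44 anti-Gr-1 and 39 isotype control UMIs in cells with medians of 1011 UMIs in anti-Gr-1 and 1026 UMIs in isotype control.

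Irak3 (ENSMUSG00000020227, chr10:120141648-120202130, minus strand), an inactive kinase relative that blocks signalling from Toll-like and interleukin-1 receptors, was detected at low levels. Gamma-delta type 17 T cells had 31.5 CPM (27.3 to 36.1) in anti-Gr-1 and 42.1 CPM (37.3 to 47.4) in isotype control, Retnla Lpl Fn1 phagocytes 25.4 CPM in anti-Gr-1 and 25 CPM in isotype control, and macrophages 22.4 CPM in anti-Gr-1 and 24.6 CPM in isotype control. Dendritic epidermal T cells had 0.652 CPM (0.239 to 1.42) in anti-Gr-1, from 6 UMIs, and 1.19 CPM (0.653 to 2) in isotype control, from 14 UMIs. In Langerhans cells 1 UMI was found in anti-Gr-1 against 0 in isotype control, where 3 UMIs would have been 3.14 CPM. Higher values stood in small classes: basophils had 117 CPM (71.4 to 180.5) in anti-Gr-1 and 180.1 CPM (113 to 273) in isotype control, and neutrophils 102 CPM (50.9 to 182) in anti-Gr-1 and 76.8 CPM (50.2 to 113) in isotype control. The gene is best known from monocytes and macrophages, and classical monocytes had 57.3 CPM (27.5 to 105) in anti-Gr-1 and 35.1 CPM (25.9 to 46.6) in isotype control.

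Tollip (ENSMUSG00000025139, chr7:141874813-141918507, minus strand), an adaptor that binds interleukin-1 receptor complexes and ubiquitin, varied least outside 1 class. Mast cells had 91.5 CPM (79.6 to 105) in anti-Gr-1 and 70.2 CPM (60.1 to 81.5) in isotype control, and macrophages came next at 31.7 CPM in anti-Gr-1 and 39.3 CPM in isotype control. The other 11 classes formed a single overlapping series between 8.83 and 29.8 CPM.

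Zc3h12a (ENSMUSG00000042677, chr4:125118423-125127840, minus strand), the RNA-degrading brake, was highest in gamma-delta type 17 T cells with 162 CPM (153 to 172) in anti-Gr-1 and 149 CPM (139.7 to 158) in isotype control. Regulatory T cells (105 CPM in anti-Gr-1 and 122 CPM in isotype control), group 2 innate lymphoid cells (91.3 CPM in anti-Gr-1 and 118 CPM in isotype control) and 3 further classes overlapped behind them. Dendritic epidermal T cells (22.8 CPM in anti-Gr-1 and 31.1 CPM in isotype control) and type 1 dendritic cells (18.8 CPM in anti-Gr-1 and 26.9 CPM in isotype control) were lowest and overlapped. Basophils had 345 CPM (262 to 445) in anti-Gr-1 and 188 CPM (119 to 283) in isotype control.

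**Figure D2:**
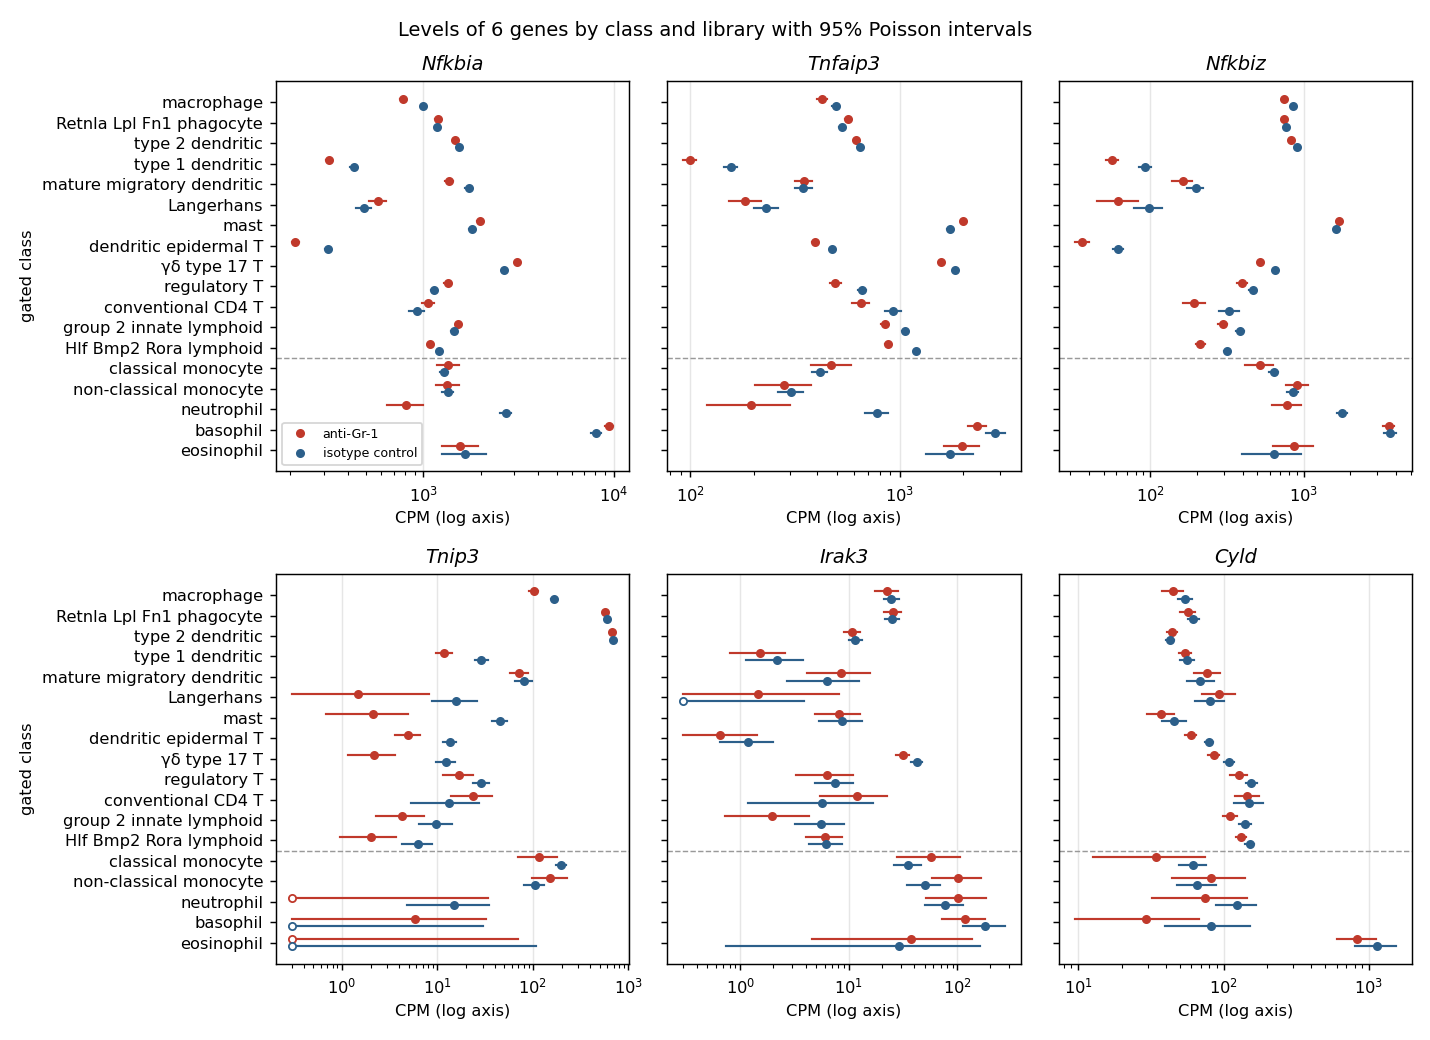
Levels of 6 genes (CPM, log axis) in 18 gated classes, anti-Gr-1 and isotype control points with 95% Poisson intervals; hollow points at the left edge stand for 0 UMIs, and classes below the dashed line have under 50 cells in a library. Nfkbia and Tnfaip3 are highest in basophils and also high in mast cells and gamma-delta type 17 T cells, and Tnip3 is high in type 2 dendritic cells (669 CPM in anti-Gr-1 and 684 CPM in isotype control) and Retnla Lpl Fn1 phagocytes (575 CPM in anti-Gr-1 and 597 CPM in isotype control).

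The share of cells in which a gene was found depends on depth, so it was compared after each cell had been thinned to 2000 UMIs. This left out 331 anti-Gr-1 and 3606 isotype control cells of all kept cells, among them 13 anti-Gr-1 and 233 isotype control mast cells. In gamma-delta type 17 T cells Nfkbia was found in 94.4% of anti-Gr-1 and 94.5% of isotype control cells, and Tnfaip3 in 90.4% in anti-Gr-1 and 89.8% in the isotype control. Without thinning, at median depths of 6901 UMIs in anti-Gr-1 and 5504 UMIs in isotype control, the shares were 98.9% in anti-Gr-1 and 98.0% in the isotype control for Nfkbia and 98.1% in anti-Gr-1 and 97.5% in the isotype control for Tnfaip3. These genes were thus found in nearly every such cell and not in a subset. No class can be taken to lack Nfkbia, and the lowest shares, in dendritic epidermal T cells, were 23.4% in anti-Gr-1 against 29.9% in isotype control.

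Nfkbiz was found in 73.4% of thinned anti-Gr-1 mast cells and 79.8% of isotype control ones, and in 4.61% of anti-Gr-1 and 8.17% of isotype control dendritic epidermal T cells. Tnip3 was found in 54.5% (51 to 57.9) of anti-Gr-1 and 52% (49.5 to 54.5) of isotype control type 2 dendritic cells, and in 52.7% of anti-Gr-1 and 53.6% of isotype control Retnla Lpl Fn1 phagocytes. As a background for Tnip3, gamma-delta type 17 T cells gave 0.228% in anti-Gr-1 and 1.14% in the isotype control, dendritic epidermal T cells 0.669% in anti-Gr-1 and 1.63% in the isotype control, and mast cells 0.567% in anti-Gr-1 and 7.32% in the isotype control. The unthinned Tnip3 shares were 85.1% in anti-Gr-1 and 78.4% in the isotype control in type 2 dendritic cells, at medians of 15738 UMIs in anti-Gr-1 and 11436 UMIs in isotype control, against 1.48% in anti-Gr-1 and 4.05% in the isotype control in gamma-delta type 17 T cells. Tnip3 in macrophages, at 10.3% in anti-Gr-1 and 14.1% in the isotype control after thinning, lay above that background in both libraries. It was uneven within the class, whose level was 102 CPM in anti-Gr-1 and 165 CPM in isotype control. In a macrophage cluster poor in Lyve1 it was 19.8 CPM in anti-Gr-1 and 128 CPM in isotype control. In a Lyve1-rich cluster it was 13 CPM in anti-Gr-1 and 28.5 CPM in isotype control. These clusters held 14 and 13 of the 319 anti-Gr-1 Tnip3 UMIs of the class, in 81 and 102 of its 287 cells. In isotype control they held 209 and 42 of 1017 UMIs, in 243 and 230 of 781 cells. Most Tnip3 UMIs of the class thus came from gated cells outside both clusters. The macrophage gate set no limit on type 2 dendritic markers, and the source of this Tnip3 was not tested.

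Lower genes were found in fewer cells at this depth. The highest thinned share of Zc3h12a was 25.3% in both libraries, in gamma-delta type 17 T cells. For Cyld it was 29.6% of anti-Gr-1 and 27.5% of isotype control conventional CD4 T cells, and for Tnip1 13.4% of anti-Gr-1 and 21% of isotype control regulatory T cells. Tollip was found in 16.7% of anti-Gr-1 and 12.9% of isotype control mast cells, and Irak3 in 5.46% of anti-Gr-1 and 8.36% of isotype control gamma-delta type 17 T cells, against 0.149% of anti-Gr-1 and 0.187% of isotype control dendritic epidermal T cells.

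**Figure D3:**
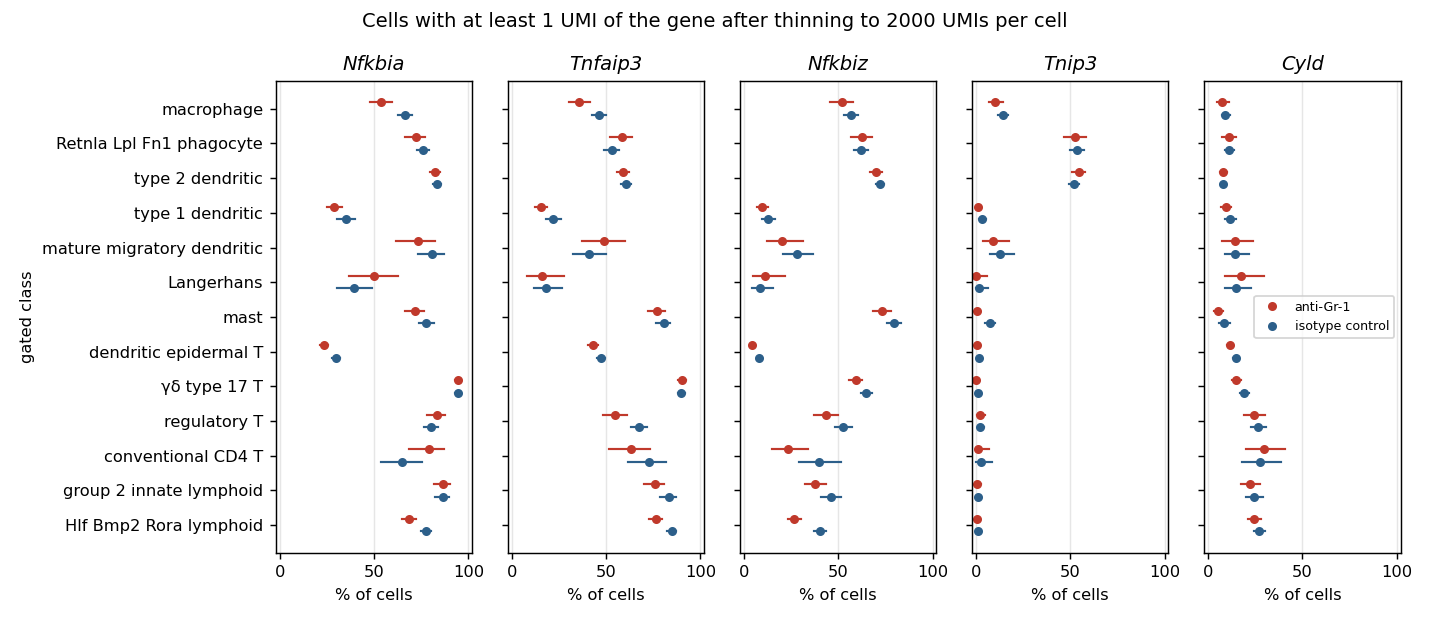
Share of cells with at least 1 UMI of 5 genes after thinning to 2000 UMIs per cell, by class, with exact 95% binomial intervals, anti-Gr-1 above isotype control in each class. Nfkbia and Tnfaip3 are found in about all gamma-delta type 17 T cells (94.4% in anti-Gr-1 and 94.5% in the isotype control, 90.4% in anti-Gr-1 and 89.8% in the isotype control), and Tnip3 stays near 0 in the lymphoid classes.

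For Nfkbia, Nfkbiz, Nfkbid, Tnfaip3, Zc3h12a and Irak3 the gamma-delta T cells of skin made the widest contrast among the large lymphoid classes. Dermal gamma-delta type 17 T cells and dendritic epidermal T cells both carry gamma-delta receptors, and the epidermal cells survey keratinocytes for stress. The ratio of type 17 over epidermal cells was 14.5 (13.9 to 15.2) in anti-Gr-1 against 8.41 (8.11 to 8.71) in isotype control for Nfkbia. It was 14.5 in anti-Gr-1 and 10.6 in the isotype control for Nfkbiz, 7.11 in anti-Gr-1 and 4.78 in the isotype control for Zc3h12a, and 3.98 in anti-Gr-1 and 3.85 in the isotype control for Tnfaip3. For Irak3 it was 48.2 in anti-Gr-1 and 35.3 in the isotype control, on the few UMIs given above. Cyld, at 1.44 in anti-Gr-1 and 1.37 in the isotype control, and Tnip1, at 1.14 (0.994 to 1.31) in anti-Gr-1 and 1.19 in the isotype control, differed little between these cells. Tnip3, at 0.439 (0.223 to 0.815) in anti-Gr-1 and 0.905 (0.684 to 1.19) in the isotype control, and Tollip, at 0.755 (0.592 to 0.958) in anti-Gr-1 and 1.04 (0.848 to 1.27) in the isotype control, were lower in type 17 cells in anti-Gr-1. The ratios of Nfkbia, Nfkbiz, Zc3h12a and Irak3 were lower in the isotype control library, where the summed macrophage markers in epidermal T cells were also higher, as given above. What part such RNA had in the ratios was not tested.

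The gamma-delta type 17 T cells were not uniform. Clusters had been made without the member genes, and 3 of them held most cells of the class. In the largest, with 578 anti-Gr-1 and 613 isotype control cells, Nfkbia was 3599 CPM in anti-Gr-1 and 3248 CPM in isotype control. In the second, with 146 anti-Gr-1 and 202 isotype control cells, it was 1716 CPM in anti-Gr-1 and 1823 CPM in isotype control, and in the third, with 108 anti-Gr-1 and 157 isotype control cells, 2659 CPM in anti-Gr-1 and 2347 CPM in isotype control. Tnfaip3 varied less, with 1621 CPM in anti-Gr-1 and 2018 CPM in isotype control in the first, 1802 CPM in anti-Gr-1 and 2049 CPM in isotype control in the second, and 1534 CPM in anti-Gr-1 and 1860 CPM in isotype control in the third. The third cluster had the most Il17a, the signature cytokine of the class, at 1695 CPM in anti-Gr-1 and 1906 CPM in isotype control, against 482 CPM in anti-Gr-1 and 390.3 CPM in isotype control in the first and 709 CPM in anti-Gr-1 and 565 CPM in isotype control in the second. The cluster with the least Nfkbia had the most immediate early and heat shock RNA, genes that tissue digestion can induce. The summed level of 10 such genes was 23347 CPM in anti-Gr-1 and 27861 CPM in isotype control there, against 7609 CPM in anti-Gr-1 and 9442 CPM in isotype control in the first cluster and 8688 CPM in anti-Gr-1 and 9879 CPM in isotype control in the third. Of the 3 clusters, the one with the most digestion RNA thus had the least Nfkbia in both libraries. Its Tnfaip3 was the highest in anti-Gr-1. In isotype control its interval (1961 to 2139 CPM) overlapped that of the first cluster (1970 to 2066 CPM). The part of digestion was not tested.

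Across classes the same list was highest in mast cells, at 48839 CPM in anti-Gr-1 and 44162 CPM in isotype control, against 9777 CPM in anti-Gr-1 and 12016 CPM in isotype control in gamma-delta type 17 T cells, 7571 CPM in anti-Gr-1 and 7993 CPM in isotype control in dendritic epidermal T cells and 9883 CPM in anti-Gr-1 and 11271 CPM in isotype control in type 1 dendritic cells. Next among the large classes were macrophages, at 16753 CPM in anti-Gr-1 and 21222 CPM in isotype control, and Langerhans cells, at 17495 and 16265 CPM. Langerhans cells stood near the low end for Nfkbia, Nfkbiz and Tnfaip3. Basophils, a small class, had 17004 CPM in anti-Gr-1 and 33573 CPM in isotype control. Mast cells led the large classes for Nfkbiz, Nfkbid and Tollip, and the part of digestion in these levels was not tested. In dendritic epidermal T cells, where 2 clusters held most cells, Tnfaip3 was 256 CPM in anti-Gr-1 and 313 CPM in isotype control in 1 cluster (643 anti-Gr-1 and 1068 isotype control cells) and 507 CPM in anti-Gr-1 and 601 CPM in isotype control in the other (607 anti-Gr-1 and 888 isotype control cells). The digestion list moved with this split, at 6348 CPM in anti-Gr-1 and 6815 CPM in isotype control in the first against 8962 CPM in anti-Gr-1 and 9123 CPM in isotype control in the other. Nfkbid in the same clusters was nearly level, at 75.1 CPM in anti-Gr-1 and 96.6 CPM in isotype control in the first cluster against 72.2 CPM in anti-Gr-1 and 94.4 CPM in isotype control in the other.

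Among dendritic cells, type 2 cells exceeded type 1 cells for most of the brakes. Type 1 cells cross-present antigen to CD8 T cells, and type 2 cells prime helper responses. The ratio of type 2 over type 1 cells was 56.6 (46.5 to 69.4) in anti-Gr-1 against 23.7 (20.3 to 27.9) in isotype control for Tnip3, 14.7 in anti-Gr-1 and 9.71 in the isotype control for Nfkbiz, 6.21 in anti-Gr-1 and 4.15 in the isotype control for Tnfaip3, 4.58 in anti-Gr-1 and 3.59 in the isotype control for Nfkbia and 4.52 in anti-Gr-1 and 3.16 in the isotype control for Zc3h12a. Cyld went the other way at 0.813 (0.719 to 0.92) in anti-Gr-1 and 0.762 (0.667 to 0.871) in the isotype control. Tnip1 had no common direction, at 1.45 (1.19 to 1.77) in anti-Gr-1 against 0.854 (0.708 to 1.03) in isotype control. Il1b, a cytokine gene that NF-κB drives, was 3394 CPM in anti-Gr-1 and 3325 CPM in isotype control in type 2 cells against 365 CPM in anti-Gr-1 and 396 CPM in isotype control in type 1 cells.

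Of 4 clusters within the type 2 dendritic class, the 2 largest differed in the rarer brakes. Irak3 was 17.3 CPM in both libraries in the cluster with the most Cd209a (1342 CPM in anti-Gr-1 and 1401 CPM in isotype control), and 3.3 CPM in anti-Gr-1 and 6.34 CPM in isotype control in the other large cluster. Zc3h12a followed the same split, at 128 CPM in anti-Gr-1 and 123 CPM in isotype control in the Cd209a-rich cluster against 61.8 CPM in anti-Gr-1 and 76.7 CPM in isotype control in the other. Nfkbid ran opposite, at 143 CPM in anti-Gr-1 and 164 CPM in isotype control in the Cd209a-rich cluster against 258 CPM in anti-Gr-1 and 249.7 CPM in isotype control in the other. Tnip3 was high in both, at 744 CPM in anti-Gr-1 and 799 CPM in isotype control in the Cd209a-rich cluster against 846 CPM in anti-Gr-1 and 797 CPM in isotype control in the other. The digestion list differed along the same split, with 15433 CPM in anti-Gr-1 and 17417 CPM in isotype control in the Cd209a-rich cluster against 10410 CPM in anti-Gr-1 and 10501 CPM in isotype control in the other, and its part was not tested. A smaller cluster, with 108 anti-Gr-1 and 217 isotype control cells, was lower in the abundant brakes. It had Tnip3 at 452 CPM in anti-Gr-1 and 335 CPM in isotype control, Tnfaip3 at 402 CPM in anti-Gr-1 and 403 CPM in isotype control and Nfkbiz at 553 CPM in anti-Gr-1 and 512 CPM in isotype control. The other smaller cluster, with 72 anti-Gr-1 and 111 isotype control cells, had Tnip3 at 575 and 675 CPM, Tnfaip3 at 438 and 502 CPM and Nfkbiz at 643 and 693 CPM. Cycling genes scored 0.613 and 0.368 in these smaller clusters, against -0.836 and -0.703 in the large ones. The part of cycling was not tested. In the large cluster with less Cd209a, Tnfaip3 was 816 CPM in anti-Gr-1 and 869.8 CPM in isotype control and Nfkbiz 941 CPM in anti-Gr-1 and 1077 CPM in isotype control.

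Within macrophages several brakes differed in level between cells with and without resident markers. The gated macrophages were divided by the resident markers Lyve1 and Folr2, a division chosen after the data had been seen. Cells with at least 2 UMIs of these markers together numbered 126 in anti-Gr-1 against 305 in isotype control, and cells with none 132 in anti-Gr-1 and 385 in the isotype control. Tnfaip3 was 174 CPM in anti-Gr-1 and 282 CPM in isotype control in cells with the resident markers, against 632 CPM in anti-Gr-1 and 627 CPM in isotype control in cells without them. Nfkbia was 422 CPM in anti-Gr-1 and 590.4 CPM in isotype control with the markers, against 1106 CPM in anti-Gr-1 and 1263 CPM in isotype control without them. In cells with the markers Nfkbiz was 493 CPM in anti-Gr-1 and 496 CPM in isotype control, against 927 CPM in anti-Gr-1 and 1096 CPM in isotype control in those without. Nfkbid was 45.1 CPM in anti-Gr-1 and 66.3 CPM in isotype control with the markers, against 114 CPM in anti-Gr-1 and 153 CPM in isotype control without them. Irak3 was close to level, at 21.8 CPM in anti-Gr-1 and 19.6 CPM in isotype control with the markers, against 22.3 CPM in anti-Gr-1 and 29.1 CPM in isotype control without them. So was Tollip, at 31.6 CPM in anti-Gr-1 and 38.3 CPM in isotype control with the markers, against 32.2 CPM in anti-Gr-1 and 38.9 CPM in isotype control without them. Nfkbia, Nfkbiz, Nfkbid and Tnfaip3 were thus higher in macrophages without the markers, in both libraries.

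Depth and digestion differed little between these groups. Median UMIs were 10134 in anti-Gr-1 against 6692 in isotype control in cells with the markers, and 9479 in anti-Gr-1 against 7123 in isotype control in cells without. The digestion list summed to 16639 CPM in anti-Gr-1 and 20126 CPM in isotype control with the markers, against 17498 CPM in anti-Gr-1 and 21205 CPM in isotype control without them. The dendritic cell gene Cd209a differed, at 21.1 CPM in anti-Gr-1 and 88.4 CPM in isotype control with the markers against 114 CPM in anti-Gr-1 and 126 CPM in isotype control without, and its part was not tested. A pair of clusters within the class gave a sharper contrast. One, with 81 anti-Gr-1 and 243 isotype control cells, had Lyve1 at 7.06 CPM in anti-Gr-1 and 6.73 CPM in isotype control, Nfkbiz at 1420 CPM in anti-Gr-1 and 1403 CPM in isotype control, Tnfaip3 at 658 CPM in anti-Gr-1 and 718 CPM in isotype control and Nfkbia at 1035 CPM in anti-Gr-1 and 1282 CPM in isotype control. The other, with 102 anti-Gr-1 and 230 isotype control cells, had Lyve1 at 1053 CPM in anti-Gr-1 and 738 CPM in isotype control, Nfkbiz at 198 CPM in anti-Gr-1 and 259.6 CPM in isotype control, Tnfaip3 at 59.9 CPM in anti-Gr-1 and 94.9 CPM in isotype control and Nfkbia at 201 CPM in anti-Gr-1 and 277 CPM in isotype control. Cd209a was similar in both clusters, at 19.8 CPM in anti-Gr-1 and 80.1 CPM in isotype control in the first and 27.9 CPM in anti-Gr-1 and 71.8 CPM in isotype control in the second. Tollip was also higher in the first, at 63.5 CPM (46.3 to 85) in anti-Gr-1 and 57.5 CPM (46.5 to 70.4) in isotype control, against 26 CPM (17 to 38) in anti-Gr-1 and 35.9 CPM (26.9 to 47) in isotype control in the second. The Lyve1-rich cluster lay below type 1 dendritic cells for Tnfaip3 and Nfkbia.

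**Figure D4:**
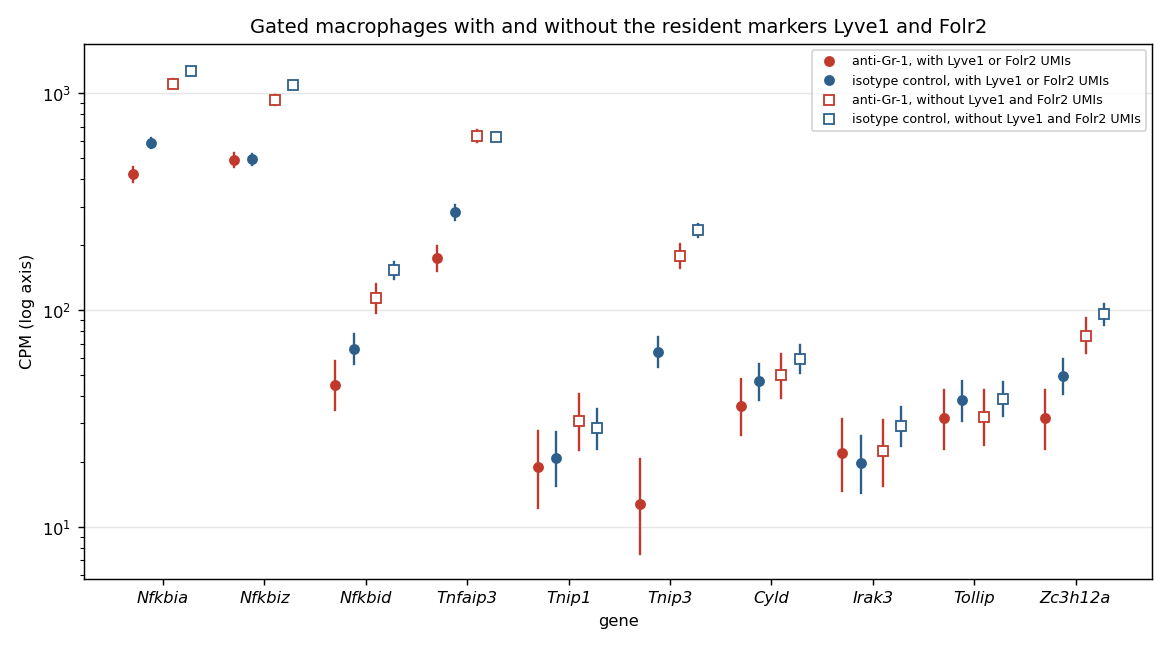
Levels (CPM, log axis) of the 10 genes in gated macrophages with at least 2 UMIs of Lyve1 and Folr2 (filled circles) and with none (open squares), by library, with 95% Poisson intervals. Tnfaip3, Nfkbia, Nfkbiz, Nfkbid, Tnip3 and Zc3h12a are higher in cells without the markers in both libraries, and Irak3 and Tollip differ little.

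Retnla Lpl Fn1 phagocytes resembled type 2 dendritic cells in Tnip3 and macrophages in Nfkbiz and Irak3. The ratio of these phagocytes over macrophages was 5.63 (5.02 to 6.34) in anti-Gr-1 against 3.63 (3.39 to 3.89) in isotype control for Tnip3, 0.988 (0.938 to 1.04) in anti-Gr-1 and 0.897 (0.865 to 0.931) in the isotype control for Nfkbiz, and 1.14 (0.842 to 1.54) in anti-Gr-1 and 1.01 (0.817 to 1.26) in the isotype control for Irak3. Tnip3 in classical monocytes, with 14 anti-Gr-1 and 171 isotype control cells, was 115 CPM (70 to 177) in anti-Gr-1 and 195 CPM (173 to 220.4) in isotype control, near the level of macrophages. Regulatory T cells exceeded conventional CD4 T cells in Nfkbiz, with ratios of 2.06 (1.72 to 2.47) in anti-Gr-1 against 1.42 (1.21 to 1.67) in isotype control, and in Nfkbia, with 1.26 in anti-Gr-1 and 1.23 in the isotype control. Tnfaip3 was lower in regulatory T cells, with ratios of 0.758 in anti-Gr-1 and 0.708 in the isotype control.

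The members' own patterns over the 13 classes were compared with each other and with other genes, as correlations of log2(CPM + 5), in each library apart. These are descriptions, since the classes share their libraries. Tnfaip3 and Nfkbid were the most alike among members, with r of 0.866 in anti-Gr-1 against 0.861 in isotype control, and Nfkbia and Nfkbid came next with 0.807 in anti-Gr-1 and 0.794 in the isotype control. The lowest r was that of Cyld and Tollip in anti-Gr-1, with -0.586 in anti-Gr-1 and -0.49 in the isotype control. In isotype control it was that of Tnip3 and Cyld, with -0.403 in anti-Gr-1 and -0.703 in the isotype control. Among 7995 other genes with at least 20 CPM in a class, the gene most like Tnip3 was Ehf, an epithelial-type transcription factor gene, with r of 0.951 in anti-Gr-1 and 0.964 in the isotype control, followed by Celf4 and Flt1. The genes most like Tnfaip3 were Med13l (0.827 in anti-Gr-1 and 0.833 in the isotype control), the immediate early gene Junb and Tgoln1, and those most like Nfkbia were Med13l, Kdm6b and Samsn1. Kdm6b, which encodes a histone demethylase, was also first for Nfkbiz at 0.893 in anti-Gr-1 and 0.915 in the isotype control, before Ctdspl and Sde2. For Nfkbid the nearest were Tob2 and Serpinb1a, and for Tnip1 Mllt6, Cul2 and Csnk1g1. Irak3 was nearest to Hbegf, Slc25a37 and Plxnd1, and Zc3h12a to Clint1, the NF-κB subunit gene Nfkb1 and Ltb4r1. Cyld was nearest to Atp2b4, Sfn and Hmgb3, and Tollip to Optn (0.898 in anti-Gr-1 and 0.934 in the isotype control), Chpt1 and Ahnak2.

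Between the libraries the members differed far less than between classes. A gene was compared in a class where it had at least 50 UMIs over both libraries, which held for 116 of the 130 combinations of member and class. A difference counted when log2(CPM + 5) differed by at least 1.5-fold. That scale understates differences of low genes. Of the 116 combinations 15 were lower in anti-Gr-1 and 0 higher, and 90 lay below zero. Of all genes measured, between 55.4% in mast cells and 71.5% in Hlf Bmp2 Rora lymphoid cells lay below zero too. Between 0.647% in type 2 dendritic cells and 13.8% in conventional CD4 T cells were lower by the fold, and between 0.103% and 4.95% in the same classes higher. Single libraries of pooled mice were compared, so that treatment, pool, sex and depth cannot be told apart.

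Macrophages had 1 member lower, Tnip3, with 102 CPM in anti-Gr-1 and 165 CPM in isotype control and a ratio of 0.619 (0.545 to 0.703). Of all genes measured in macrophages 3.23% were lower and 0.492% higher by the same rule. The 10 members had a median log2 ratio of -0.26, against -0.05 over all genes. In Retnla Lpl Fn1 phagocytes 0 of 10 members passed the fold, where 2.29% of all genes were lower and 0.251% higher, and the median was -0.06 over the members and -0.07 over all genes. In type 2 dendritic cells, the class with the most UMIs, 0 of 10 passed, with 0.647% of genes lower and 0.103% higher and a median of -0.05 over the members and -0.07 over all genes. Tnip3 in that class had a ratio of 0.978 (0.951 to 1), Zc3h12a of 1 (0.926 to 1.08) and Tnfaip3 of 0.952 (0.926 to 0.979).

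Type 1 dendritic cells had 3 of 9 measured members lower, against 1.9% of all genes lower and 0.176% higher. Tnfaip3 was 99 CPM in anti-Gr-1 and 156 CPM in isotype control (ratio 0.636, 0.578 to 0.7), Nfkbiz 56.5 CPM in anti-Gr-1 and 92.6 CPM in isotype control (0.61, 0.538 to 0.692) and Tnip3 11.8 CPM in anti-Gr-1 and 28.9 CPM in isotype control (0.41, 0.316 to 0.529). The median of the members was -0.47, against -0.09 over all genes. In these cells Cd209a was 8 CPM in anti-Gr-1 and 24 CPM in isotype control, and the 8 type 2 dendritic markers summed to 494 CPM in anti-Gr-1 and 579 CPM in isotype control, none of them at 0.

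Mature migratory dendritic cells had 1 of 9 members lower, Nfkbid at 146 CPM in anti-Gr-1 and 237 CPM in isotype control (0.616, 0.508 to 0.746), where 6.37% of all genes were lower and 1.94% higher. The median of its members was 0, against -0.09 over all genes. Langerhans cells had 3 of 7 lower, Tnip1, Nfkbiz and Zc3h12a, where 8.22% were lower and 1.91% higher. They rested on 26, 42 and 25 UMIs in anti-Gr-1 and 66, 93 and 60 UMIs in isotype control, with ratios of 0.553 (0.337 to 0.883), 0.634 (0.43 to 0.923) and 0.585 (0.352 to 0.948). With a stricter gate Nfkbiz in Langerhans cells was no longer lower.

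Mast cells had 1 of 9 lower, which was Tnip3 at 2.13 CPM in anti-Gr-1 against 44.9 CPM in isotype control, beside the markers of other cells given above. Of all genes in mast cells 5.17% were lower and 1.13% higher. The other 8 measured mast cell members had ratios between 0.733 (0.553 to 0.967), for Zc3h12a, and 1.3 (1.06 to 1.6), for Tollip. Tnfaip3 had 1.16 (1.12 to 1.21), Nfkbid 1.14 (1.06 to 1.21), Tnip1 0.831 (0.58 to 1.19) and Cyld 0.81 (0.605 to 1.08). The median over mast cell members was 0.06, against -0.03 over all genes.

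Dendritic epidermal T cells had 2 of 9 members lower, Nfkbiz at 35.9 CPM in anti-Gr-1 and 61.4 CPM in isotype control (0.584, 0.511 to 0.666) and Tnip3 at 4.89 CPM in anti-Gr-1 and 13.6 CPM in isotype control, where 2.6% of all genes were lower and 0.17% higher. All 9 lay below zero, with a median of -0.39 against -0.11 over all genes, of which 69.2% lay below zero. Il1b in the same cells was 26.4 CPM in anti-Gr-1 and 74.8 CPM in isotype control. Gamma-delta type 17 T cells had 1 of 10 lower, Tnip3, where 4.46% of genes were lower and 0.358% higher. Their members did not move together. Nfkbia was higher in anti-Gr-1, with a ratio of 1.17 (1.15 to 1.2) that did not reach the fold, and Tnfaip3, at 0.858 (0.835 to 0.881), and Nfkbiz, at 0.794 (0.759 to 0.831), were lower. The medians were -0.3 for the members and -0.14 for all genes.

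Regulatory T cells had 1 of 9 lower, Tnip3 at 16.7 CPM in anti-Gr-1 and 28.7 CPM in isotype control, where 9.31% of genes were lower and 0.986% higher. It was no longer past the fold in male cells, with a ratio of 0.875 (0.52 to 1.45), and female cells held 1 anti-Gr-1 and 9 isotype control UMIs of it. Cd209a moved with it, at 8.37 CPM in anti-Gr-1 and 23.6 CPM in isotype control, and its part was not tested. Here too Nfkbia had a ratio above 1, at 1.18 (1.13 to 1.24), and Tnfaip3 a ratio below 1, at 0.747 (0.691 to 0.806). Conventional CD4 T cells had 2 of 7 lower, Tnip1 at 35.3 CPM in anti-Gr-1 and 73.7 CPM in isotype control from 27 anti-Gr-1 and 39 isotype control UMIs, and Nfkbiz at 192 CPM in anti-Gr-1 and 327 CPM in isotype control. In that class 13.8% of genes were lower and 4.95% higher. Group 2 innate lymphoid cells had 0 of 8 past the fold, where 5.79% of genes were lower and 1.47% higher, and medians of -0.32 for the members and -0.12 for all genes. In Hlf Bmp2 Rora lymphoid cells 0 of 9 passed, with 3.84% of genes lower and 0.147% higher, and all 9 lay below zero, as did 71.5% of all genes, with a median of -0.33 over the members against -0.14 over all genes. Tnfaip3 there was 874 CPM in anti-Gr-1 and 1194 CPM in isotype control, a ratio of 0.732 (0.704 to 0.761), and Nfkbiz 212 CPM in anti-Gr-1 and 315 CPM in isotype control, a ratio of 0.674 (0.624 to 0.728).

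**Figure D5:**
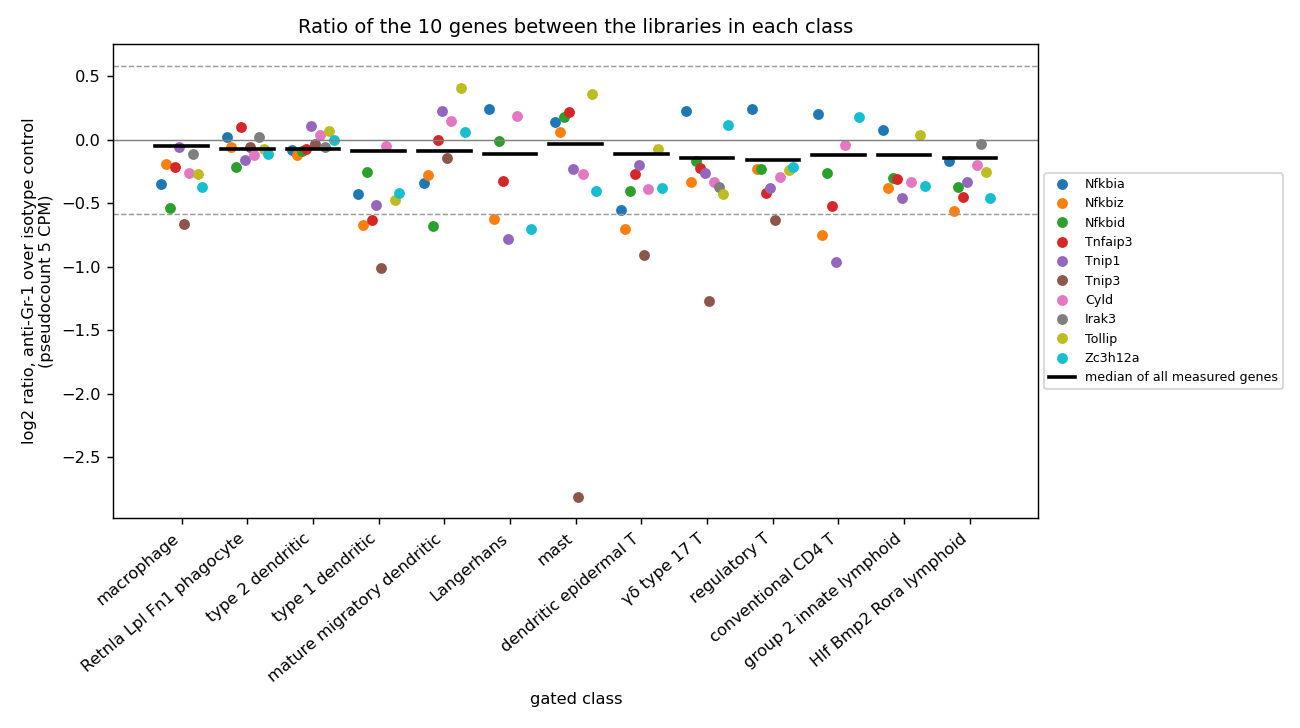
Log2 ratio of anti-Gr-1 over isotype control (pseudocount 5 CPM) for each member with at least 50 UMIs in each of 13 classes; black bars are medians of all measured genes and dashed lines mark 1.5-fold. Of the points 15 lie on or below the lower line and 0 on or above the upper line, with Tnip3 in mast cells lowest at -2.81; no interval is drawn.

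The rest of the pathway was read from lists in the same way. The shares of all genes past the fold in each class are those given above. Of 18 core genes, the adaptors, kinases and subunits of NF-κB, few passed the fold in most classes. The most were lower in group 2 innate lymphoid cells, 3 of 17 where 5.79% of all genes were. Conventional CD4 T cells had 2 of 8 lower, where 13.8% of all genes were. In type 2 dendritic cells 0 of 18 did, with a median log2 ratio of -0.08. In gamma-delta type 17 T cells 1 of 18 was lower with a median of -0.21, which was Tab1 at 2.92 CPM in anti-Gr-1 and 7.28 CPM in isotype control. In Hlf Bmp2 Rora lymphoid cells 2 of 17 were lower with a median of -0.35, Nfkb1 at 509 CPM in anti-Gr-1 and 820.5 CPM in isotype control and Nfkb2 at 67.2 CPM in anti-Gr-1 and 105 CPM in isotype control. Nfkb1 and Nfkb2 encode subunit precursors that are themselves NF-κB targets. A further 22 brakes gave a like picture. Conventional CD4 T cells had the most lower, 4 of 15, and type 1 dendritic cells and group 2 innate lymphoid cells had 2 of 20 each. In macrophages 1 of 20 was lower (median -0.24), the cytokine signalling inhibitor Socs1 at 4.8 CPM in anti-Gr-1 and 20.2 CPM in isotype control. Dendritic epidermal T cells had 1 of 21 lower (median -0.21), Zfp36, which encodes an RNA-destabilising protein, at 330.4 CPM in anti-Gr-1 and 535 CPM in isotype control.

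The list of 22 NF-κB driven outputs differed more between the libraries. Of the measured outputs, mast cells had 9 of 15 lower with a median of -1.12, dendritic epidermal T cells 10 of 16 with -0.72 and gamma-delta type 17 T cells 7 of 13 with -0.64. Of all genes, 5.17% were lower in mast cells, 2.6% in dendritic epidermal T cells and 4.46% in gamma-delta type 17 T cells. Regulatory T cells had 7 of 14 lower and 1 higher (median -0.49), where 9.31% of all genes were lower and 0.986% higher. Hlf Bmp2 Rora lymphoid cells had 4 of 13 lower (-0.55), where 3.84% of all genes were. Mature migratory dendritic cells had 4 of 14 lower (-0.22), where 6.37% were. Langerhans cells had 0 of 9 lower and 2 higher (0.06), where 8.22% were lower and 1.91% higher. For the classes that follow, these shares were 0.647% in type 2 and 1.9% in type 1 dendritic cells and 3.23% in macrophages. In type 2 dendritic cells, which make Il1b, 0 of 17 were lower. Among the mast cell outputs Ccl3 was 3.4 CPM in anti-Gr-1 and 209 CPM in isotype control, and Nlrp3 0 CPM in anti-Gr-1 and 22 CPM in isotype control, while Tnf, which mast cells make, was 316 CPM in anti-Gr-1 and 298 CPM in isotype control and Cxcl2 128 CPM in anti-Gr-1 and 106 CPM in isotype control. In dendritic epidermal T cells Cxcl2 was 20.2 CPM in anti-Gr-1 and 94.5 CPM in isotype control and Tnf 85.5 CPM in anti-Gr-1 and 79.6 CPM in isotype control. In mast cells, dendritic epidermal T cells and gamma-delta type 17 T cells the summed macrophage markers were also higher in isotype control, as given above. The same held in every other large class except macrophages and type 2 dendritic cells. These had 15423 and 1059 CPM in anti-Gr-1 and 13074 and 1032 CPM in isotype control. The 8 type 2 dendritic markers summed to 29.5 CPM in anti-Gr-1 and 87.9 CPM in isotype control in dendritic epidermal T cells, but were level in mast cells, and the part of such RNA in the counts was not tested. Type 1 dendritic cells had 5 of 16 outputs lower and 1 higher, with Ccl3 at 12.2 CPM in anti-Gr-1 and 36.5 CPM in isotype control, Tnfsf9 at 34 CPM in anti-Gr-1 and 75.3 CPM in isotype control and Tnf at 31.7 CPM in anti-Gr-1 and 61.7 CPM in isotype control. Macrophages had 3 of 18 lower and 1 higher, with Ptgs2 at 51.2 CPM in anti-Gr-1 and 104 CPM in isotype control, Il1b at 466 CPM in anti-Gr-1 and 749.9 CPM in isotype control and Il6, the higher one, at 39.7 CPM in anti-Gr-1 and 12 CPM in isotype control.

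The digestion list moved with some of these differences. Of its 10 genes 5 were lower in regulatory T cells (median -0.69) and 5 in mature migratory dendritic cells (-0.57), 4 in dendritic epidermal T cells (-0.2) and in conventional CD4 T cells (-0.37), and 3 in gamma-delta type 17 T cells (-0.43) and macrophages (-0.29). The shares of all genes lower in these classes were, in the same order, 9.31%, 6.37%, 2.6%, 13.8%, 4.46% and 3.23%. In mast cells 1 was lower (0.1), and in group 2 innate lymphoid cells and Hlf Bmp2 Rora lymphoid cells 2 were (-0.28 and -0.38). None was lower in type 1 dendritic cells (-0.21), Langerhans cells (0.06), type 2 dendritic cells (-0.09) or Retnla Lpl Fn1 phagocytes (-0.08). In gamma-delta type 17 T cells Hspa1a was 399.6 CPM in anti-Gr-1 and 829 CPM in isotype control, and Junb 4963 CPM in anti-Gr-1 and 5411 CPM in isotype control.

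The pools differed in sex, so the ratios were also taken in cells of 1 sex. Tnfaip3 in type 1 dendritic cells was lower in both, at 95.2 CPM in anti-Gr-1 and 145 CPM in isotype control in female cells and 93.2 CPM in anti-Gr-1 and 157 CPM in isotype control in male cells. The same held for Nfkbiz in dendritic epidermal T cells, at 28.3 CPM in anti-Gr-1 and 49.6 CPM in isotype control in female and 26.8 CPM in anti-Gr-1 and 56.9 CPM in isotype control in male cells. Tnip3 in macrophages was otherwise, at 23.1 CPM in anti-Gr-1 and 213 CPM in isotype control in female cells but 122 CPM in anti-Gr-1 and 130 CPM in isotype control in male cells, so that the difference named above was not seen in male macrophages. Its ratio was 0.108 (0.0572 to 0.187) in 58 anti-Gr-1 and 253 isotype control female cells and 0.939 (0.79 to 1.12) in 158 anti-Gr-1 and 302 isotype control male cells. Nfkbia in gamma-delta type 17 T cells had ratios of 1.04 (1 to 1.08) in female and 1.22 (1.19 to 1.26) in male cells. With male cells alone 7 of 108 combinations were lower by the fold, and with female cells alone 20 of 99 were lower and 2 higher. The share of all genes past the fold in cells of 1 sex is not given here. Some female classes were small, such as 13 anti-Gr-1 Langerhans cells, so these counts cannot be read as particular to the members.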

How the data were processed

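Per the labels' protocols, live CD45+ cells were sorted from collagenase-digested skin and 3′ libraries were prepared, with 1 library per treatment. The authors deposited raw UMI counts for each gene in each cell barcode. Per the file headers these came from Cell Ranger 4.0.0, and the build was mm10 per the submitters' processing notes. Whether counting used strand is not given in the sources used here.

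The software was scanpy 1.11.5 with numpy 2.4.6, scipy 1.17.1 and pandas 2.3.3 under Python 3.11.15. Filters asked for 200 genes and 500 UMIs or more per barcode, with mitochondrial UMIs below 10%, and kept 8047 anti-Gr-1 and 19542 isotype control barcodes. Those with the highest scrublet doublet scores were removed per library at a rate of 0.8% per 1000 barcodes, which took out 518 (6.44%) and 3055 (15.6%). Classes were gated on raw UMIs: a cell needed several markers of a list, key genes among them, at least 2 UMIs per marker (1 for low ones) and few or no markers of other lineages. Cd209a, Mgl2 and Clec10a, markers of type 2 dendritic cells, were an exception. The gates of macrophages, type 1 dendritic cells and Retnla Lpl Fn1 phagocytes set no limit on them. The gate thresholds were set after the clusters and marker detection had been seen. The members and all lists were chosen with earlier results of these data known. Leiden clusters (resolution 2) were made without the member genes.

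Levels are CPM with exact Poisson intervals, shares have exact Clopper-Pearson intervals, and ratios have exact conditional intervals, all at 95%. Log2 ratios use a pseudocount of 5 CPM and genes with at least 50 UMIs over both libraries. This calculation was tested on simulated counts that held counting error only. Such a test cannot speak to variation between cells, mice or libraries. With 1 library per group no test between groups was possible. Named were all members, for each the 3 most alike genes, and up to 4 genes at each end of each list's ratios, from which the text takes examples. The lists were NF-κB pathway core, other brakes, NF-κB driven outputs and genes that tissue digestion induces. Gene positions are from GENCODE M21 on mm10, and no other gene overlapped a member on its strand. Alternatives were other gates, clusters, doublets kept, other filters and pseudocounts, equal weight per cell, thinning and cells of 1 sex. Of the genes whose pattern was most like a member, 1 is not reported here.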

Additional observations from a re-analysis of the deposited data

Results flagged for a closer look

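In 4 combinations of gene and class the ratio of anti-Gr-1 over isotype control lay above 1 in cells of 1 sex and below 1 in cells of the other, with counting intervals that exclude 1 on both sides. The difference between the sexes itself was not tested, and cells of 1 sex come from an unknown number of pooled mice. Nfkbia in mast cells had a ratio of 2.09 (1.91 to 2.3) in female cells, at 2583 CPM in anti-Gr-1 and 1235 CPM in isotype control, and of 0.908 (0.863 to 0.956) in male cells, at 2123 CPM in anti-Gr-1 and 2338 CPM in isotype control. Tnfaip3 in mast cells ran the other way, with 0.82 (0.741 to 0.907) in female and 1.22 (1.15 to 1.29) in male cells. Only 55 female anti-Gr-1 mast cells were available, against 202 female isotype control ones. Tnfaip3 in type 2 dendritic cells had 1.11 (1.05 to 1.17) in female and 0.865 (0.834 to 0.898) in male cells. Nfkbiz in Retnla Lpl Fn1 phagocytes had 1.12 (1.03 to 1.22) in female and 0.897 (0.85 to 0.946) in male cells.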

How the results depend on the processing

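The main setting gave 15 of 116 combinations of member and class at least 1.5-fold lower in anti-Gr-1 and 0 higher. Male cells alone gave 7 lower of 108, and the other alternatives between 10 and 20. Shares over all genes under these alternatives are not given here. The count of higher ones was 2 with genes of at least 10 UMIs and 2 in female cells alone, 1 with a stricter gate and 1 with cells thinned to 2000 UMIs, and 0 in the rest. The equal weight per cell, mitochondrial filter, top gene and thinning counts and the setting of at least 2000 UMIs per cell were added after seeing the data. The Nfkbiz log2 ratio in Langerhans cells was -0.62, and 0.10 with the stricter gate; the cause was not tested. No other called ratio with at least 50 UMIs under the alternative changed sign. With fewer, Tnip1 in Langerhans cells, at a log2 ratio of -0.78, was 0.10 in female cells, from 11 anti-Gr-1 and 31 isotype control UMIs. The sign of the ratio was kept in 101 of 112 combinations with the stricter gate, 96 of 106 with clusters, 82 of 91 after thinning, 81 of 99 in female cells and 100 of 108 in male cells.

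No paired analysis was possible because each group is 1 library. The pools hold an unknown share of each mouse and differ in sex and depth. Intervals cover counting error only. Low levels can hold RNA of other cells, whose part was not tested. Classes with under 50 cells in a library were described and not compared.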
